A study of Mus musculus with 18 samples.

Results

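The 8 genes described here are the adult globin genes *Hbb-bs*, *Hbb-bt*, *Hba-a1* and *Hba-a2*, the embryonic globin genes *Hbb-y*, *Hbb-bh1* and *Hba-x*, and *Alas2*, out of 36737 genes with deposited counts. They were chosen by name, with earlier results on red blood cell and placental genes of the same libraries known, so their presence and level in each library are given as a description without a test. All 8 were detected in all 18 libraries and passed the filter on low counts in each comparison. The libraries came from the L3–L5 dorsal root ganglia (DRG, the clusters of sensory neurons beside the spinal cord) of adult CD1 mice, an outbred strain. The Sham group had sham surgery. The Fracture group had a tibial fracture and vehicle. The Fracture+PDX group had the same fracture and protectin DX (PDX), a lipid mediator made from the omega-3 fatty acid DHA. Each group held 6 mice (3 males and 3 females), and each mouse gave 1 library. The ganglia of both fracture groups were taken on day 3 after fracture, and the day for Sham is not given in the sources used here. No mutant allele or transgene is named for these mice.

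Hemoglobin is a tetramer of 2 alpha-type and 2 beta-type globin chains, each holding a heme. Mouse red blood cells made in the embryonic yolk sac use the embryonic chains, and the cells made later in fetal liver and adult bone marrow use the adult chains, a change known as globin switching. *Alas2* encodes the red cell form of the first enzyme of heme synthesis, whereas its relative *Alas1* serves most other cells. Neurons and glia are not a main source of globin RNA, and globin reads in a solid tissue are usually read as blood in the sample. In adult mice, embryonic globin RNA is not normally abundant.

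The 4 beta-type genes lie in one cluster on chromosome 7, all on the minus strand of the mm10 build. *Hbb-bt* (103812524 to 103813996) comes first, followed by *Hbb-bs* (103826534 to 103827928), *Hbb-bh1* (103841637 to 103843164) and *Hbb-y* (103851749 to 103853216), within 40693 bases. The 3 alpha-type genes lie on the plus strand of chromosome 11, with *Hba-x* (32276400 to 32278116) ahead of *Hba-a1* (32283511 to 32284465) and *Hba-a2* (32296489 to 32297298), within 20899 bases. *Alas2* lies on chromosome X (150547375 to 150570638, plus strand). Each globin gene has 3 exons and *Alas2* has 11. In both clusters the adult genes and the embryonic genes are neighbours on the same strand.

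The first 60 coding bases of the beta-type genes, from the GENCODE M21 transcripts (GRCm38), are shown because they bear on how well reads of neighbouring genes can be told apart, with capitals at bases that differ from *Hbb-bs*.
Hbb-bs: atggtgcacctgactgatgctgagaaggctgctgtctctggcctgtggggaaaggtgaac
Hbb-bt: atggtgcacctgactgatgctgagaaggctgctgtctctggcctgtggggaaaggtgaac
Hbb-y: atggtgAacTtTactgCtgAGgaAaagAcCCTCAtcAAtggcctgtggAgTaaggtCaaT
Hbb-bh1: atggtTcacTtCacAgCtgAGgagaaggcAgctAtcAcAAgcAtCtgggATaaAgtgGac
The adult pair were identical over this stretch and differed at 1 of 441 coding bases. *Hbb-y* differed from *Hbb-bs* at 19 of these 60 bases and at 113 of all 441, and *Hbb-bh1* at 18 and 115.

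The first 60 coding bases of the alpha-type genes are shown in the same way, with capitals at bases that differ from *Hba-a1*.
Hba-a1: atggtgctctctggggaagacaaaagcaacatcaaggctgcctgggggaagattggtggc
Hba-a2: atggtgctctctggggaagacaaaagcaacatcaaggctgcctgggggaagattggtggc
Hba-x: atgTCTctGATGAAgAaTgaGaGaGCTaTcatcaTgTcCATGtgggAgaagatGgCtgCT
*Hba-a1* and *Hba-a2* were again identical here and differed at 1 of 426 coding bases, and *Hba-x* differed from *Hba-a1* at 28 of 60 and 163 of 426. Of the 100-base windows of the *Hba-a2* transcript, 74.5% also occurred in *Hba-a1*, and of those of *Hbb-bs*, 62.6% also occurred in *Hbb-bt*. No window of 50 bases in an embryonic globin transcript occurred in an adult globin transcript or in another embryonic one. The split of counts within each adult pair is therefore uncertain, while stretches of 50 bases or more from embryonic and adult genes differ on the reference sequence.

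The deposited counts summed to 63235040 in the shallowest library and 82824942 in the deepest, and the 7 globin genes took between 0.0531% and 0.283% of them. Levels between libraries are given in CPM (counts scaled by library size with edgeR's TMM method), and levels between genes in the deposited FPKM, which are also divided by transcript length. Over the 18 libraries, mean FPKM was 570.0 for *Hba-a1*, 467 for *Hbb-bs*, 329 for *Hba-a2* and 209 for *Hbb-bt*. It was 53.5 for *Hbb-y*, 20.7 for *Hba-x*, 8.75 for *Hbb-bh1* and 7.51 for *Alas2*. The adult genes were thus above the embryonic ones, and *Hbb-y* stood at 6.11 times *Hbb-bh1*. The means of *Hbb-bh1* and *Alas2* differed by less than the SD of either (6.70 and 3.33 FPKM). The member with the lowest read counts, *Hbb-bh1*, still had at least 126 reads in each library, so counting error was small beside the spread between libraries.

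**Figure D1:**
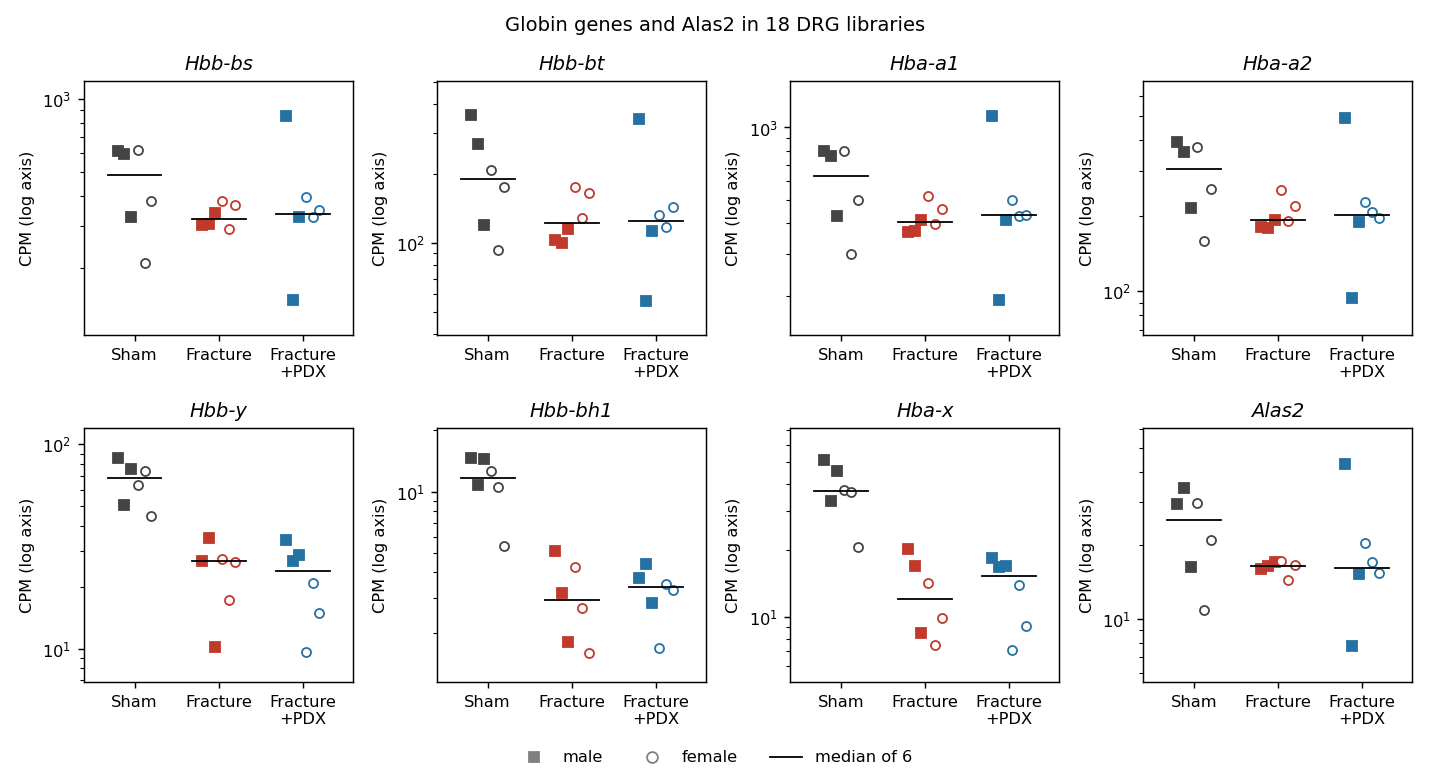
Each panel shows one gene as CPM on a log axis, with 1 point per library (squares for males, open circles for females) and a line at the median of 6. The 3 embryonic genes were lower in all 12 fracture libraries than in every Sham library, as were 0.572% of the 21340 genes kept over the 18 libraries, and the adult genes and *Alas2* overlapped between groups.

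*Hbb-bs*, the more abundant adult beta-globin gene, was at 613, 596 and 328 CPM in Sham males and 619, 210 and 380 CPM in Sham females. In Fracture mice it ranged narrowly, with 291 CPM as the lowest, 321 as the median and 381 as the highest. In Fracture+PDX mice the lowest was 148, the median 337 and the highest 851 CPM. Both extremes of all 18 libraries were thus Fracture+PDX males, male 2 at the bottom and male 1 at the top, a 5.74-fold range, and the groups overlapped. *Hba-a1*, an adult alpha-globin gene, followed the same order at its ends, from 193 CPM in Fracture+PDX male 2 to 1113 CPM in Fracture+PDX male 1. Its median was 630.1 CPM in Sham, 404.5 in Fracture and 432 in Fracture+PDX. *Hba-a2*, its near-identical copy, ranged from 93.5 to 490.4 CPM, with medians of 305, 192 and 201 CPM. *Hbb-bt*, the minor adult beta-globin gene, was the exception at the top, where Sham male 1 (361 CPM) stood above Fracture+PDX male 1 (344 CPM).

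*Alas2* moved with the adult globins. It was at 29.6, 34.3 and 16.4 CPM in Sham males and at 29.9, 10.9 and 21.0 CPM in Sham females. Fracture libraries were close together, between 14.5 and 17.3 CPM. Fracture+PDX libraries spread from 7.74 CPM in male 2 to 43.1 CPM in male 1. The coefficient of variation of the ratio of *Alas2* to adult globin FPKM was 8.62% in Sham, 11.6% in Fracture and 5.98% in Fracture+PDX, against 37.1%, 14.6% and 60.5% for adult globin itself. The ratio thus spanned 1.33-fold over libraries whose adult globin spanned 5.83-fold.

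The embryonic genes gave another order. *Hbb-y*, the embryonic epsilon-type beta chain, was at 85.8, 50.5 and 75.5 CPM in Sham males and at 63.3, 74.2 and 44.5 CPM in Sham females. In Fracture mice it was at 26.9, 34.8 and 10.2 CPM in males and 27.5, 17.2 and 26.6 CPM in females. In Fracture+PDX mice it was at 34.0, 26.9 and 28.8 CPM in males and 9.58, 20.9 and 14.9 CPM in females. Every Sham library was above every fracture library, with a gap from 34.8 to 44.5 CPM. Of the 21340 genes kept, 1.42% were lower in every Fracture library than in every Sham library, and 1.46% were in Fracture+PDX.

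*Hbb-bh1*, the other embryonic beta-type chain, was at 14.7, 10.8 and 14.5 CPM in Sham males and 12.6, 10.5 and 5.41 CPM in Sham females. In Fracture mice it was at 5.09, 3.15 and 1.81 CPM in males and 4.235, 2.67 and 1.61 CPM in females. In Fracture+PDX mice it was at 3.74, 4.38 and 2.81 CPM in males and 1.70, 3.51 and 3.28 CPM in females. The groups did not overlap, but Sham female 3 and Fracture male 1 were nearly level. *Hba-x*, the embryonic zeta chain of the alpha family, showed the same near contact, at 20.7 CPM in Sham female 3 and 20.3 CPM in Fracture male 1. It was at 50.9, 33.5 and 45.8 CPM in Sham males and at 37.4 and 36.8 CPM in the other Sham females. In Fracture mice the lowest was 7.52, the median 12.1 and the highest 20.3 CPM, and in Fracture+PDX mice these were 7.12, 15.4 and 18.5 CPM.

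The question of the first comparison was what fracture changed relative to sham surgery. All 3 embryonic globin genes were lower in Fracture than in Sham, and the 4 adult globin genes and *Alas2* did not pass the test. The difference between the 2 classes in their change was not tested. *Hbb-bh1* was 3.66-fold lower (log2 fold change −1.87 ± 0.31 SE, adjusted p = 0.0148 in edgeR's quasi-likelihood test, n = 6 against 6). *Hba-x* was 2.92-fold lower (−1.55 ± 0.25, adjusted p = 0.0170). *Hbb-y* was 2.74-fold lower (−1.45 ± 0.29, adjusted p = 0.0330). Over all 20659 genes tested, 2.92% were called and 1.83% were called lower, and the median log2 fold change of all genes was 0.0021. The log2 fold changes of the adult genes were −0.46 for *Hbb-bs*, −0.63 for *Hbb-bt*, −0.50 for *Hba-a1* and −0.53 for *Hba-a2*, with adjusted p between 0.256 and 0.400. *Alas2* had −0.53 ± 0.24 (adjusted p = 0.276). In fits of each sex alone, made after seeing the data, the adult genes had −0.70 to −1.23 in males and −0.02 to −0.25 in females. None of these was called, and the difference between the sexes in this change was not tested. The call of *Hbb-y* was lost without any 1 of 8 libraries in turn, with adjusted p up to 0.0810, while *Hbb-bh1* and *Hba-x* were called without each of the 12 (adjusted p up to 0.0435 and 0.0442). Since placental genes were already known to be lower in these comparisons, the calls of the embryonic globins are not independent support for a loss of embryonic RNA.

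Fracture+PDX was then compared with Sham. This comparison uses the same Sham libraries, so the values stand beside the first set and do not repeat it. *Hbb-bh1* was 3.50-fold lower (log2 fold change −1.81 ± 0.23 SE, edgeR adjusted p = 0.00208), *Hbb-y* was 3.06-fold lower (−1.61 ± 0.24, adjusted p = 0.00712) and *Hba-x* was 2.78-fold lower (−1.48 ± 0.20, adjusted p = 0.00405). Of 20574 genes tested, 4.5% were called and 2.32% were called lower. These 3 genes were called without each of the 12 libraries in turn, with adjusted p of at most 0.0207. The adult globins had log2 fold changes from −0.19 (*Hbb-bs*) to −0.41 (*Hbb-bt*) with adjusted p of at least 0.707, and *Alas2* had −0.25 (adjusted p = 0.822). The standard errors were 0.38 to 0.45 for the adult genes and 0.20 to 0.24 for the embryonic ones.

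The comparison the study was built for, Fracture+PDX against Fracture, called none of the 8 genes. Of 20562 genes tested, 0% were called by edgeR, which gave 1113 genes an unadjusted p under 0.05, and DESeq2 called 15. The log2 fold changes were 0.27 ± 0.35 for *Hbb-bs*, 0.22 ± 0.40 for *Hbb-bt*, 0.29 ± 0.36 for *Hba-a1*, 0.22 ± 0.34 for *Hba-a2* and 0.28 ± 0.34 for *Alas2* (SE). They were −0.16 ± 0.34 for *Hbb-y*, 0.06 ± 0.29 for *Hbb-bh1* and 0.07 ± 0.24 for *Hba-x*, and the lowest adjusted p of the 8 was 0.980. The direction of the adult genes and *Alas2* rested on Fracture+PDX male 1, without which all 5 were lower than in Fracture (−0.15 for *Hbb-bs*, −0.29 for *Hbb-bt*, −0.16 for *Hba-a1*, −0.20 for *Hba-a2*, −0.15 for *Alas2*). A difference of the size of the standard errors could not be detected here.

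**Figure D2:**
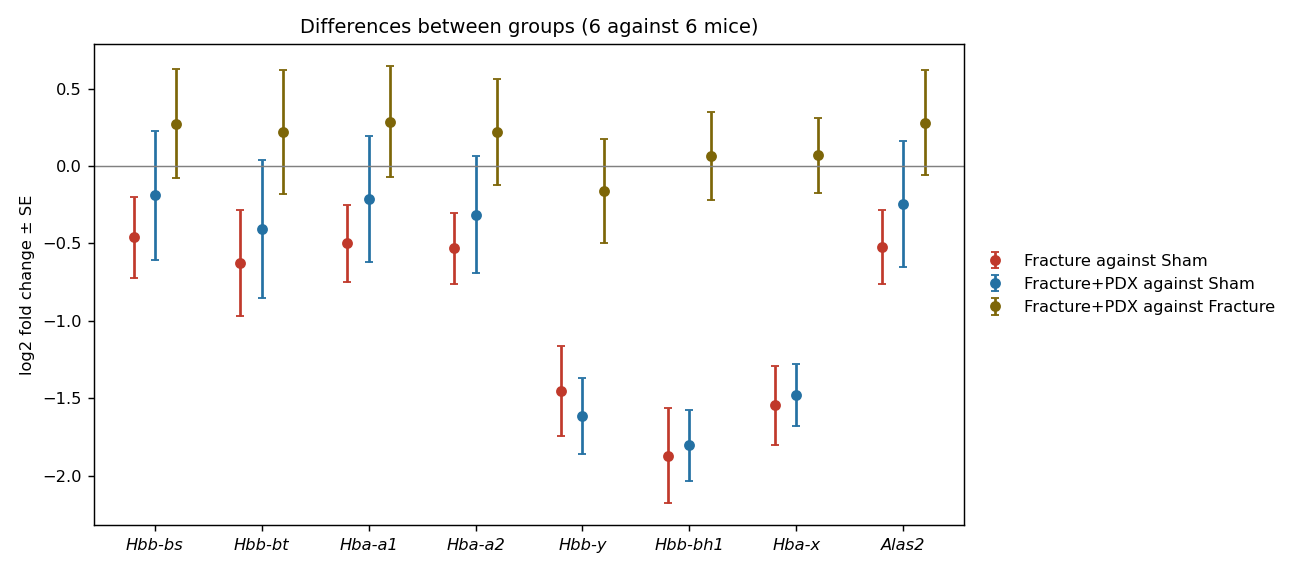
Log2 fold changes with standard errors are plotted for the 8 genes in the 3 comparisons of groups, 6 against 6 mice each. Both comparisons with Sham put the embryonic genes between −1.45 and −1.87, and those of the adult genes lay between −0.19 and −0.63.

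In bulk RNA, fewer cells of a type and less RNA per cell cannot be told apart, which holds for all levels given here. When adult and embryonic globin were set against each other library by library, the libraries fell in different orders. Summed embryonic FPKM was 148 ± 37.2 in Sham, 51.1 ± 17.9 in Fracture and 49.9 ± 18.1 in Fracture+PDX (mean ± SD, n = 6 each). Summed adult FPKM was 1872 ± 695, 1299.9 ± 189.7 and 1553 ± 940.1, respectively. Sham female 2 had the lowest adult sum of its group (938 FPKM) and the highest embryonic share of globin FPKM of all libraries (14.6%). Fracture+PDX female 1 had 1512 FPKM of adult globin and the lowest embryonic share (1.51%). The embryonic share overlapped between groups, from 4.82% to 14.6% in Sham, 1.97% to 5.82% in Fracture and 1.51% to 9.42% in Fracture+PDX. Fracture+PDX males 1 and 2, with 3355 and 576 FPKM of adult globin, had nearly the same embryonic sum (72.0 and 59.9 FPKM).

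**Figure D3:**
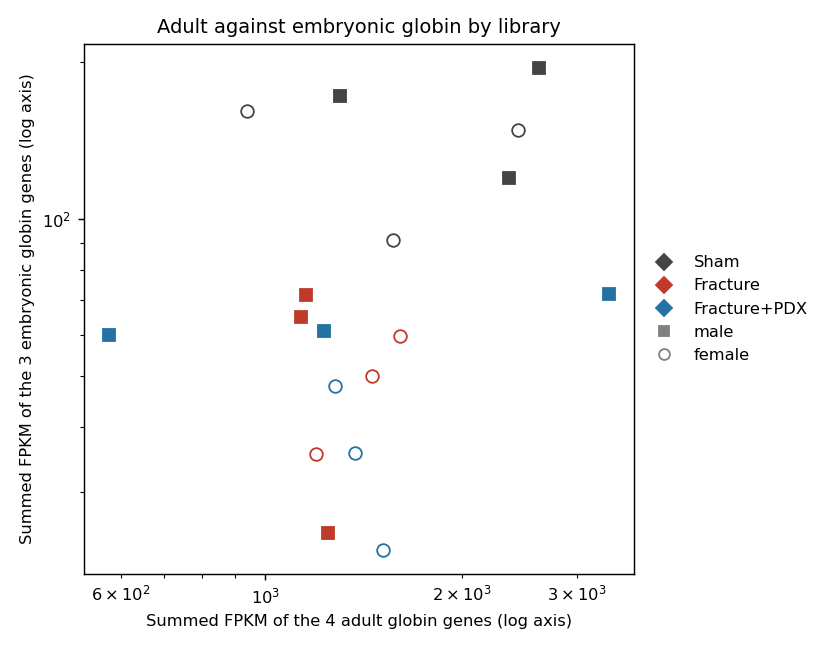
Each point is 1 library, with the summed FPKM of the 4 adult globin genes on the horizontal log axis and that of the 3 embryonic genes on the vertical log axis. The Sham libraries lie at 91.2 FPKM of embryonic globin or above and the others at 72.0 or below, at any level of adult globin.

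Across the 18 libraries, on log2 CPM with the group means removed, *Hbb-bs* was related to *Alas2* (Pearson r = 0.98, Spearman rho = 0.93) and to *Slc4a1*, the anion exchanger of the red cell membrane (r = 0.93, rho = 0.76). The permutation p of both values of r was 1e-05, the smallest that the permutations can give, with adjusted p = 3e-05 over 6 relations, and those of rho were 6e-05 and 0.00129 after adjustment. The permutations mixed groups of unequal spread (SD of *Hbb-bs* 37.4 CPM in Fracture and 237 in Fracture+PDX), so all permutation p-values given here are approximate. With Fracture+PDX males 1 and 2 left out, whose *Hbb-bs* levels lay farthest from the median, r with *Alas2* and *Slc4a1* was 0.96 and 0.84. The relation with *Gata1*, an erythroid transcription factor (r = 0.70, rho = 0.57, permutation p adjusted 0.00284 and 0.0284), rested on those 2 libraries, without which r was 0.41. With *Hbb-bh1*, r was −0.03 and rho 0.04 (permutation p = 0.895 and 0.876, the same after adjustment). For *Pecam1*, an endothelial gene, r was 0.16 and rho 0.07 (permutation p = 0.540 and 0.773, adjusted 0.648 and 0.876). For *Myh4*, a muscle myosin, r was −0.23 and rho −0.30 (permutation p = 0.367 and 0.231, adjusted 0.550 and 0.347), and with the same 2 libraries left out r was −0.60 (permutation p adjusted 0.0270).

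As a description without a test, the members fell into 2 sets by these deviations. Among the adult genes and *Alas2*, r between pairs ran from 0.91 (*Hbb-bt* with *Alas2*) to 0.998 (*Hba-a1* with *Hba-a2*). Among the embryonic genes it was 0.86 for *Hbb-y* with *Hba-x*, 0.81 for *Hbb-bh1* with *Hba-x* and 0.63 for *Hbb-y* with *Hbb-bh1*. Between the sets it lay between −0.05 and 0.06. These points share libraries and depth, and the adult pairs may share reads. Of 21339 genes compared, the non-members most like *Hbb-bs* included *Slc4a1*, *Rhd*, *Ermap*, *Slfn14*, *Ear2*, *Nusap1*, *Cldn13*, *Slc25a37* and *Epb42*, with r from 0.93 to 0.87. *Slc4a1*, *Rhd*, *Ermap* and *Epb42* encode proteins of the red cell membrane, and *Slc25a37* carries iron into mitochondria. Among the members, *Hba-x* ranked 5 of all genes by likeness to *Hbb-bh1*. The 10 non-members most like *Hbb-bh1* were *Gm8712*, *Srd5a3*, *Kdelr2*, *Arhgap23*, *Rufy4*, *Dmrtb1*, *Ly6e*, *Apobec3*, *Gpr135* and *Scfd1* (r from 0.88 to 0.76), none of which is on the red cell list. *Kdelr2* ranged only from 40.0 to 50.9 CPM and *Arhgap23* from 59.3 to 68.9 CPM, against 1.61 to 14.7 CPM for *Hbb-bh1*.

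The lists of other erythroid genes were read beside the members. Of 14 red cell genes measured, 1 was called in Fracture against Sham, *Kel*, a blood group protein of the red cell membrane (log2 fold change −1.27 ± 0.29 SE, edgeR adjusted p = 0.0330). None of them was called in Fracture+PDX against Sham or against Fracture. Over all genes tested, 2.92% were called in Fracture against Sham, 4.5% in Fracture+PDX against Sham and 0% in Fracture+PDX against Fracture. The medians of the list were −0.99, −0.20 and 0.78 in the 3 comparisons, against 0.0021, −0.0013 and 0 for all genes. *Slc4a1* was at 7.28 to 31.7 CPM in Sham, 9.23 to 14.2 in Fracture and 5.11 to 47.4 in Fracture+PDX, the widest range again being that of the PDX mice. The 7 erythroid regulators, with *Zfpm1*, *Tal1* and *Nfe2* among them, had no call in any comparison, and their medians were −0.715, −0.15 and 0.67 in the same order. None of 11 genes of heme synthesis was called, and *Alas1*, the form of the enzyme found in most cells, stayed between 53.1 and 61.3 CPM in all libraries. Of 7 measured globins outside the members, *Cygb* (cytoglobin of connective tissue cells), *Ngb* (neuroglobin), *Mb* (myoglobin of muscle), *Hbq1a* and *Hbq1b* were tested and none was called.

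Of 8 genes known from globin switching, *Igf2bp1*, an RNA-binding protein of fetal cells, was called lower in both comparisons with Sham. Its log2 fold change was −1.37 ± 0.29 in Fracture (edgeR adjusted p = 0.0283) and −1.56 ± 0.25 in Fracture+PDX (adjusted p = 0.00454). The other 7 were not called, and the medians of the list were −0.29 and −0.23, with log2 fold changes from −1.45 to 0.19 in Fracture and from −0.64 to 0.24 in Fracture+PDX for those 7. *Bcl11a* and *Zbtb7a*, both repressors of embryonic and fetal globin, had log2 fold changes of −0.03 and 0.02 in Fracture against Sham (adjusted p = 0.945 and 0.888). Of 10 genes that clear hemoglobin and heme, 2 were called in Fracture against Sham. The median log2 fold change of the list was −0.11. *Hmox1*, which breaks down heme, was lower (−0.45 ± 0.08, edgeR adjusted p = 0.0140), as was the iron exporter *Slc40a1* (−0.59 ± 0.12, adjusted p = 0.0207). *Hmox2* and *Blvrb*, a biliverdin reductase, had 0.05 and 0.16 and were not called. In Fracture+PDX against Sham *Hmox1* and *Slc40a1* were also lower, by −0.38 and −0.61, and *Blvrb* was called higher (0.23 ± 0.04, edgeR adjusted p = 0.00954). The median of the list was −0.09 there. Over all genes tested, 2.92% were called in Fracture and 4.5% in Fracture+PDX against Sham.

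Genes of the placenta and the yolk sac were read beside the embryonic globins. The summed level of 18 placental genes was 268 to 859 CPM in Sham, 44.7 to 387 CPM in Fracture and 42.0 to 209.8 CPM in Fracture+PDX. In Fracture against Sham 7 of the 18 were called lower and in Fracture+PDX against Sham 15 of 18, with median log2 fold changes of −1.76 and −2.28. Of all genes tested, 1.83% and 2.32% were called lower in these comparisons. *Tpbpa*, a marker of the spongy layer of the placenta, was at 75.5 to 232.3 CPM in Sham, and no library was at 0. In Fracture female 3 it was at 112 CPM, inside the Sham range, and the placental sum of that library (387 CPM) was above that of Sham female 3 (268 CPM). In Fracture female 3 *Hbb-bh1* was the lowest of all 18 libraries (1.61 CPM), *Hbb-y* was at 26.6 CPM against a Fracture median of 26.8, and the embryonic sum was 50.05 FPKM, within the Fracture range of 25.0 to 71.4. Without that library, the log2 fold changes against Sham were −1.76 for *Hbb-bh1*, −1.51 for *Hbb-y* and −1.52 for *Hba-x*, with edgeR adjusted p of 0.0228, 0.0560 and 0.0377.

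Of 10 genes of the yolk sac, the tissue in which embryonic red cells are made, 1 was called lower in each comparison with Sham. That gene was *Trf*, the iron carrier transferrin, which is also made outside the yolk sac (log2 fold changes −0.52 and −0.47). Of all genes tested, 1.83% and 2.32% were called lower in those comparisons. *Afp*, alpha-fetoprotein of the yolk sac and fetal liver, was at 53.0 to 185 CPM in Sham, 0.811 to 109 CPM in Fracture and 21.2 to 104 CPM in Fracture+PDX, so its groups overlapped. The summed level of the yolk sac list was 209.6 to 408 CPM in Sham, 108 to 249.5 in Fracture and 129 to 271 in Fracture+PDX. The means of these sums were 284, 175 and 178 CPM, of which *Trf* alone made up 140, 97.8 and 101 CPM. The median log2 fold change of the list was −0.78 in Fracture and −0.69 in Fracture+PDX against Sham. As a description, with the group means removed, r with *Hbb-y* had a median of 0.76 over the placental genes and of −0.21 over the yolk sac genes. With *Hba-x* these medians were 0.63 and 0.06, and with *Hbb-bh1* they were 0.46 and 0.42. The part of placental and yolk sac RNA in the level of the embryonic globins was not tested. Whether the embryonic reads came from the ganglia or from other samples was not tested either, so the levels and the calls against Sham describe these libraries. The 10 genes of the DRG neuron list summed to 10526 CPM or more in every library. Of these, 3 (*Tubb3*, *Scn9a* and *Nefh*) were called higher in Fracture than in Sham, by 0.16 to 0.22 on the log2 scale. *Tubb3* was also called higher in Fracture+PDX than in Sham (0.21). Over all genes, 225 of 20659 and 447 of 20574 tested were called higher in these comparisons.

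**Figure D4:**
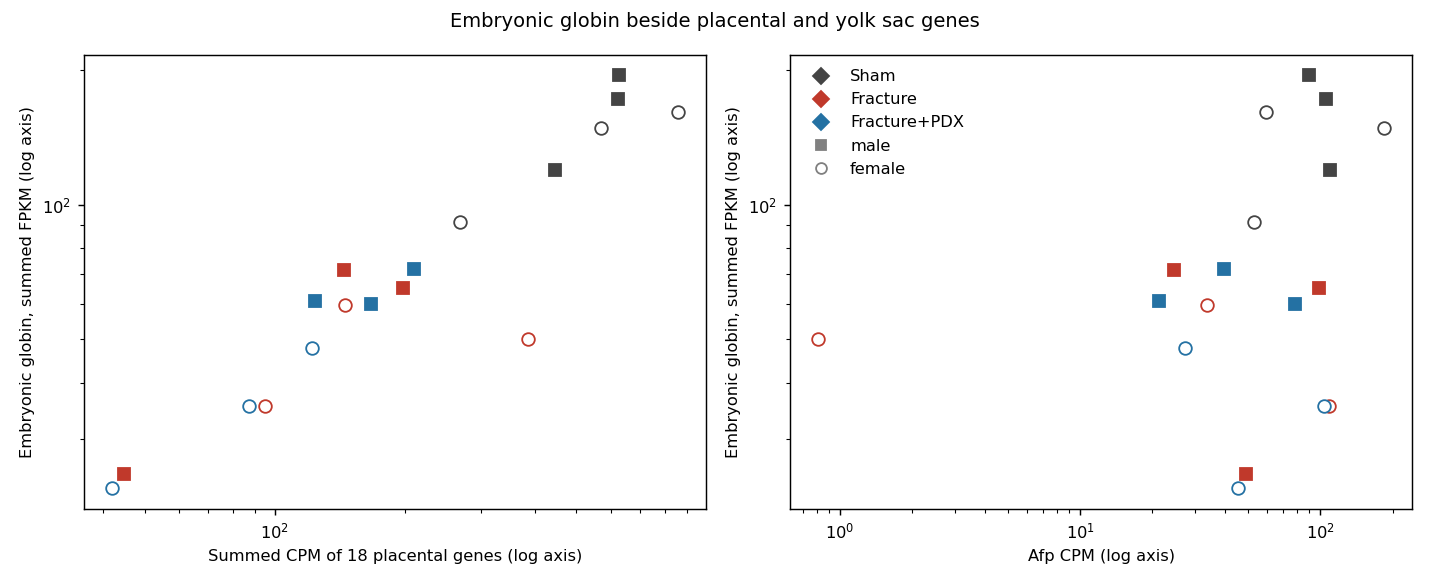
The summed FPKM of the 3 embryonic globin genes is plotted against the summed CPM of 18 placental genes (left) and against *Afp* CPM (right), on log axes, with 1 point per library. Fracture female 3, at 387 CPM of placental genes and 0.811 CPM of *Afp*, sits apart from the other libraries in both panels.

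Other cell types of blood and vessel were read in the same way. None of 12 neutrophil genes and none of 9 platelet genes was called in any of the comparisons. In Fracture against Sham, Fracture+PDX against Sham and Fracture+PDX against Fracture, the median log2 fold changes were −0.81, 0.31 and 1.13 for the neutrophil genes and −0.13, 0.77 and 1.06 for the platelet genes. The neutrophil sum was 89.0 to 396 CPM in Sham, 96.8 to 203 in Fracture and 86.3 to 499 in Fracture+PDX. Of 10 endothelial genes, *Cdh5* and *Flt1* were called lower in Fracture than in Sham (log2 fold changes −0.73 and −0.71, edgeR adjusted p = 0.0117 and 0.0171). In Fracture+PDX against Sham these 2 and *Esam* were called lower. The medians of the 10 were only −0.13, −0.16 and −0.02 in the same 3 comparisons. Over all genes tested, 1.83% were called lower in Fracture and 2.32% in Fracture+PDX against Sham. Among 8 tested genes of B-cell precursors, *Rag1* was called lower in Fracture than in Sham (−1.65, edgeR adjusted p = 0.0251), and the medians of these 8 were −1.04, −0.33 and 0.55. Muscle genes spread widely within each group, and 0 of 12 were called. Their sum was 32.9 to 787 CPM in Sham (median 103.5), 66.9 to 1523 CPM in Fracture (median 443) and 19.0 to 731 CPM in Fracture+PDX (median 70.5), and the medians of their log2 fold changes were 2.05, 0.26 and −1.89 in the same 3 comparisons. Of 10 glial genes 0 were called in Fracture against Sham, and *Kcnj10* was called higher (0.27) and *Sox10* lower (−0.15) in Fracture+PDX against Sham. The part of these cell types in the globin levels was not tested.

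The composition within each class of chain was examined next, in FPKM. The split of counts within each adult pair is uncertain, as given above, so the shares of *Hba-a2* and *Hbb-bt* rest on how reads were assigned. *Hba-a2* made up 36.8% of adult alpha globin on average over the 18 libraries, from 34.9% to 39.0%. *Hbb-bt* made up 30.3% ± 3.44 (mean ± SD) of adult beta globin, with a wider range, from 26.5% in Fracture male 2 to 39.2% in Sham male 1. In Fracture mice this share was 26.5% to 27.1% in the males and 32.6% to 33.4% in the females. In Sham mice the sexes overlapped, at 28.5% to 39.2% in males and 26.7% to 33.3% in females, and so they did in Fracture+PDX mice, at 27.4% to 30.6% in males and 26.75% to 30.95% in females. Of the 21340 genes kept, 12.5% did not overlap in CPM between Fracture males and females. The ratio of adult alpha to adult beta globin was 1.35 ± 0.0705 and stayed between 1.20 and 1.49. The embryonic ratio of *Hba-x* to *Hbb-y* plus *Hbb-bh1* was lower, 0.341 ± 0.0606, and ranged from 0.2355 to 0.470. *Hbb-bh1* made up 13.7% ± 3.49 of the embryonic beta-type FPKM, from 5.88% in Fracture female 3 to 18.5% in Fracture+PDX female 3. *Hbb-y* was thus the main embryonic beta chain in every library.

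**Figure D5:**
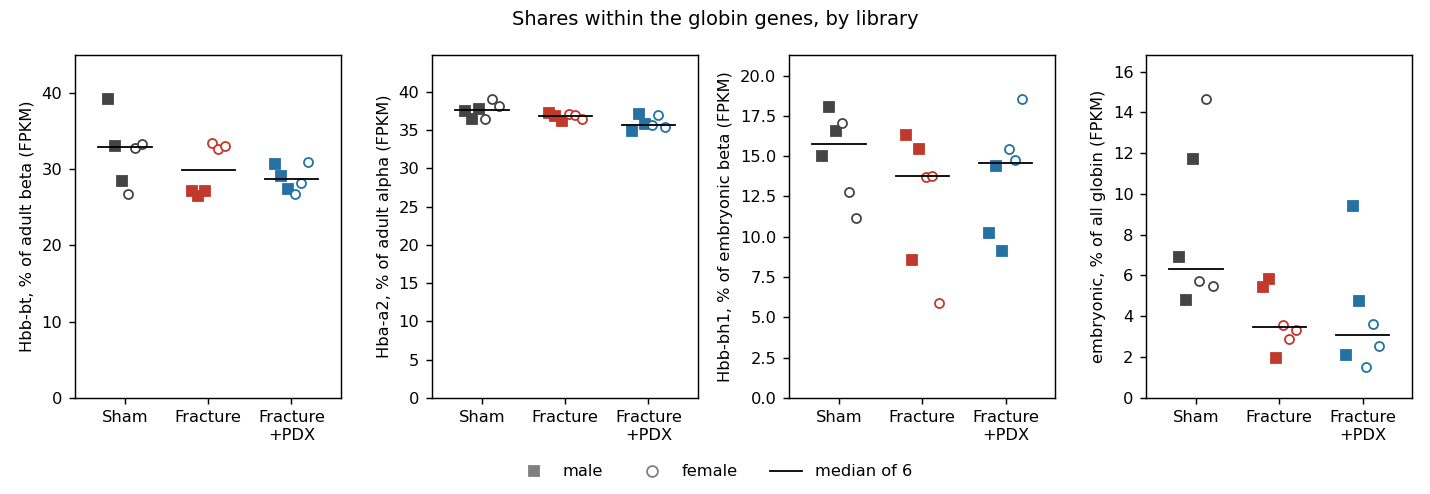
The panels show, by library and group, the percentage of *Hbb-bt* in adult beta globin, of *Hba-a2* in adult alpha globin, of *Hbb-bh1* in embryonic beta globin and of embryonic genes in all globin, in FPKM on axes that start at 0. The share of *Hba-a2* lies between 34.9% and 39.0% in all libraries, the share of *Hbb-bh1* lies between 5.88% and 18.5%, and that of the embryonic genes between 1.51% and 14.6%.

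Females and males were compared over the 3 groups, 9 against 9 mice. None of the 8 genes was called, against 0.297% of 20527 genes. *Hba-x* had the largest difference, with a log2 fold change of −0.59 ± 0.19 SE in females against males (edgeR adjusted p = 0.249). Its means were 43.4 CPM in males and 31.6 in females for Sham, 15.3 and 10.5 for Fracture, and 17.4 and 10.1 for Fracture+PDX. In Fracture+PDX mice the 3 males (16.8 to 18.5 CPM) were above the 3 females (7.12 to 14.0 CPM), and *Hbb-y* also did not overlap there (26.9 to 34.0 CPM in males and 9.58 to 20.9 in females), as was so for 7.46% of the 21340 genes in this direction. In Fracture mice both genes overlapped between the sexes, at 8.45 to 20.3 CPM of *Hba-x* in males and 7.52 to 14.2 in females, and in Sham mice both overlapped as well. The sex difference of the PDX comparison itself was tested as an interaction, which called 0.00486% of 20562 genes and none of the 8, with adjusted p = 0.998 for each. The interaction term was −0.96 ± 0.62 for *Hbb-y* and −0.94 ± 0.78 for *Hbb-bt* on the log2 scale.

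The 120 bases before the start that RefSeq gives for *Hba-a2* and *Hbb-y* on GRCm38.p6 are shown as 1 adult and 1 embryonic example of the motifs near the start. The deposited coordinates place these starts a little differently, so that the last 3 and 9 of these bases lie inside the genes as given above. Capitals mark matches, searched on either strand, to 4 short motifs. CACCC is bound by KLF1 and related factors. CCAAT is the core of the box of that name. TATAA is the core of the box that places the start of transcription. GATAA is bound by the GATA family. The regions are chr11:32296372-32296491 (plus strand) and chr7:103853208-103853327 (minus strand), in that order.
Hba-a2: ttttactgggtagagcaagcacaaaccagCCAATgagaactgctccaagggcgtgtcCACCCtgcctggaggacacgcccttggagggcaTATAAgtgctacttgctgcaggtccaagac
Hbb-y: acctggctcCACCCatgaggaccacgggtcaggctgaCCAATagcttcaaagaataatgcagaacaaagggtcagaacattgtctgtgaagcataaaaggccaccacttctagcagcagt
Of the 7 members with a promoter entry (*Hbb-bh1* was named only), all held CACCC, against 31.7% of 32851 promoter windows of this length. CCAAT was found in the 4 adult genes and *Hbb-y* (21.3% of all windows), TATAA in the 4 adult genes and *Hba-x* (11.8%), and GATAA in *Hba-x* and *Alas2* (10.5%). *Hbb-y* and *Hba-x* shared the CACCC match and no other of the 4. By the deposited coordinates the windows of *Hba-a1* and *Hba-x* lie wholly inside the gene, and 73 bases of that of *Hbb-bt* and 42 of that of *Alas2* do. These matches describe the letters in the window and not the binding of a factor.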

How the data were processed

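Stranded poly(A) RNA libraries were made from the L3–L5 DRG of 18 mice, 1 library per mouse. The submitters' processing notes name cutadapt 1.10, FastQC, HISAT2, StringTie and the mm10 build. The authors deposited read counts per gene without normalization, and FPKM values scaled by transcript length and library. The test the authors used across all genes is not given in the sources used here. Groups, sexes and numbers came from the sample labels, and columns headed Con were read as Sham.

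The deposited counts were analysed with edgeR 4.0.16 in R 4.3.3 (filterByExpr, minimum count 10, TMM, robust quasi-likelihood test, sex as covariate, 12 libraries per comparison, Benjamini-Hochberg over all genes tested, threshold 0.05). DESeq2 1.42.0, limma 3.58.1 on log2(FPKM + 1), upper-quartile scaling, other filters, library sizes without globins, no sex covariate, a replicate block, all 18 libraries in one fit and each library left out were alternatives. Levels used a prior count of 2 on the log2 scale. Relations across libraries were tested with two-sided permutation tests of 1e+05 permutations in scipy 1.17.1. The fits were tested on simulated data. P-values measure the spread between libraries, each from 1 mouse. Where the embryonic reads came from was not tested, so for those genes this may not be a spread between independent mice.

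The members and gene lists were chosen with earlier results of these data known. Named genes are the members, up to 4 genes of each list with the highest mean CPM, the 10 genes most like *Hbb-bs* and the 10 most like *Hbb-bh1*. One gene that this rule names is not reported here. *Gata1* is named as one of the 6 relations, *Hbq1a* to complete a count of 5, and other listed genes because they were called, which was seen first. Coding bases came from GENCODE M21 transcripts, promoters from RefSeq.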

Additional observations from a re-analysis of the deposited data

Results flagged for a closer look

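5 values stood apart within their group of 6, all of the same library, and chance flags about 1 in 20 groups. Fracture+PDX male 1 was at 851 CPM of *Hbb-bs*, where the other 5 libraries of the group ranged from 148 to 395 CPM. It was at 344 CPM of *Hbb-bt* (others 55.6 to 143), 1113 CPM of *Hba-a1* (others 193 to 498), 490.4 CPM of *Hba-a2* (others 93.5 to 227) and 43.1 CPM of *Alas2* (others 7.74 to 20.4). In each the gap to the next library took 0.640 to 0.699 of the range of the group. The 5 genes were correlated across libraries, so these are not 5 separate signs, and 39 groups of values were looked at. None of the 3 embryonic genes and none of the shares and ratios examined (embryonic share, *Hbb-bt* and *Hbb-bh1* shares, adult and embryonic alpha to beta ratio) stood apart in this way in any group.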

How the results depend on the processing

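Under the other tools, filters, scalings and covariates, the calls of *Hbb-bh1* in both comparisons with Sham were kept in 9 of 9, as were those of *Hbb-y* and *Hba-x* in Fracture+PDX against Sham. In Fracture against Sham, *Hbb-y* lost its call with no filter (adjusted p = 0.0556), limma (0.0555) and the replicate block (0.127), and *Hba-x* with the replicate block (0.0538). Mice of the same sex and number did not deviate together (r of −0.07 to 0.13), so the numbers were not taken as pairs.

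Counts of called genes depended on the tool. DESeq2 called 15 genes in Fracture+PDX against Fracture, 1511 in Fracture against Sham, 1620 in Fracture+PDX against Sham, 330 between the sexes and 8 in the interaction, where at least 10 counts per library left 0. The replicate block called 118 and 486 genes in Fracture and Fracture+PDX against Sham, and limma 266 and 488. Leaving out 1 library gave 213 (without Fracture female 2) to 710 (without Sham male 1), 498 to 1008 and, for Fracture+PDX against Fracture, 0 to 1.

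Added after seeing the data, males alone gave 13 genes in Fracture and 150 in Fracture+PDX against Sham, and females alone 7, 37 and, in Fracture+PDX against Fracture, 1. With 3 against 3 mice the embryonic genes were called only for *Hbb-bh1* (adjusted p = 0.0107) and *Hba-x* (0.0223) in Fracture+PDX males against Sham males. Without Fracture+PDX males 1 and 2, 399 genes were called against Sham, the 3 embryonic genes among them (adjusted p = 0.0142 to 0.0320).

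In Fracture+PDX against Fracture, where no member was called, signs turned. The log2 fold change of *Hbb-bt* was −0.0009 with the replicate block, that of *Hbb-y* was 0.32 in males alone, and those in females alone were −0.25 for *Hbb-bt*, −0.008 for *Hba-a1*, −0.062 for *Hba-a2* and −0.059 for *Hba-x*. Without Fracture+PDX males 1 and 2 they were −0.14 for *Hbb-bt*, −0.026 for *Hba-a2* and −0.078 for *Hbb-bh1*. Leaving out 1 library moved *Hbb-bs* from −0.15 to 0.44, *Hbb-bt* from −0.29 to 0.37, *Hba-a1* from −0.16 to 0.45, *Hba-a2* from −0.20 to 0.37, *Alas2* from −0.15 to 0.45, *Hbb-y* from −0.38 to 0.0072, *Hbb-bh1* from −0.077 to 0.25 and *Hba-x* from −0.076 to 0.20. In Fracture+PDX against Sham it moved *Hbb-bs* from −0.58 to 0.0046 and *Hbb-bt* from −0.83 to −0.20. There it also moved *Hba-a1* from −0.62 to −0.029, *Hba-a2* from −0.69 to −0.13 and *Alas2* from −0.65 to −0.06.

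With Fracture+PDX males 1 and 2 left out, r with *Gata1* fell to 0.41 (permutation p adjusted 0.170), that with *Pecam1* was −0.12, that with *Hbb-bh1* was 0.033, and that with *Myh4* was −0.60 (permutation p adjusted 0.0270). The cause was not tested for any of these.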

Other observations

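Over the placental and yolk sac genes and the embryonic globins together, libraries of different groups were often nearest to each other, a pattern noticed after the values were seen and given without a test. For each library the nearest other library was sought over 30 genes (the 3 embryonic globins, the 18 placental genes and 9 yolk sac genes without *Trf*), by the median difference in log2(CPM + 0.1). There were 6 mutual pairs. One joined Sham males 1 and 3 (median difference 0.16), and the other 5 each joined a Fracture library to a Fracture+PDX library. Fracture male 3 and Fracture+PDX female 1 differed by 0.18, and the next nearest library to Fracture male 3 differed by 0.76. Fracture female 2 and Fracture+PDX female 3 differed by 0.21 (next 0.63), Fracture male 2 and Fracture+PDX male 3 by 0.24 (next 0.42), Fracture male 1 and Fracture+PDX male 2 by 0.25 (next 0.37), and Fracture female 1 and Fracture+PDX female 2 by 0.28 (next 0.41). One of these pairs held a male and a female.

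In the adult globins and *Alas2*, 2 of the 6 pairs were far apart and 4 were closer, by the same median log2 difference. Fracture male 1 and Fracture+PDX male 2 differed by 0.94, and Sham males 1 and 3 by 0.89. Fracture male 2 and Fracture+PDX male 3 differed by 0.11, Fracture female 2 and Fracture+PDX female 3 by 0.13, Fracture male 3 and Fracture+PDX female 1 by 0.24, and Fracture female 1 and Fracture+PDX female 2 by 0.28. Of the fracture libraries, Fracture female 3 and Fracture+PDX male 1 were in no mutual pair. The nearest libraries were not sought for the embryonic globins alone. Why libraries of different groups lay near each other was not tested, carry-over of reads or RNA from other samples included, and the assignment of libraries to batches or lanes is not given in the sources used here.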
